A study of Arabidopsis thaliana with 20 samples.

Results

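The whole Arabidopsis growth and harvest experiment was carried out 2 times, and the values of the second growth were set against those of the first. All 20 arrays of the series took part. The 10 arrays whose titles carry R2 formed the second growth (run 2 in the plots) and the 10 whose titles carry R1 the first (run 1), and each array was paired with the array of the same genotype and harvest time. The groups of the second growth were Atss3, a mutant of starch synthase 3, and wild type (WT), each sampled 1, 4, 8.5, 12 or 16 h after the start of the light period, and the first growth held the same 10 groups. All plants grew in short days of 8 h of light and 16 h of darkness. Every array held RNA from leaves 5 to 8 of 16 pooled rosettes that were 6 weeks old and harvested under green light. The mutant allele is not named in the labels, and the targeted gene had no named probe set, so it was not analysed here. Each growth had its own random layout of plants, so the growth and every step that was done once per growth cannot be told apart.

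Rosette leaves make starch by day and break it down at night, and much of the leaf transcriptome follows that daily cycle. Repeat growths of the same genotype can differ in the age, light, water, handling and microbes that the plants meet, and defence genes such as the plant defensins are known to respond to several of these. Autophagy, the delivery of cell contents to the vacuole in membrane vesicles, is likewise known to respond to nutrient and energy supply.

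The deposited values were microarray signals, and differences are given as second minus first growth in log2 signal. "Called" means an adjusted p under 0.05 in limma with Benjamini-Hochberg adjustment over all 15470 probe sets kept. Across these, harvest time and genotype accounted for 79.4% of the sum of squares of log2 signal, the common difference between growths for 6.03%, and the rest for 14.6%. Over both genotypes 2668 probe sets were called (17.2%), of which 1388 were higher (8.97%) and 1280 lower (8.27%) in the second growth. Most differences were small: the median absolute difference was 0.17, and 94 probe sets (0.608%) differed by more than 1. With arrays centred on their medians the split was 875 higher and 1706 lower, so the balance of directions depends on the scaling. The arrays measure bulk leaf tissue, in which fewer cells of a type and less RNA per cell cannot be told apart.

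The differences between growths were smaller in Atss3 than in WT, with a median absolute value of 0.166 in Atss3 and 0.209 in WT. In Atss3 26 probe sets were called (0.168%), 13 higher (0.084%) and 13 lower (0.084%), and 3181 had an unadjusted p under 0.05. In WT 2031 were called (13.1%), 1174 higher (7.59%) and 857 lower (5.54%). Both genotypes called the same 18 probe sets (0.116%), 7 higher (0.0452%) and 11 lower (0.0711%), and no probe set was called in opposite directions. Without the WT pair of 1 h that number was 123, and without the Atss3 pair of 4 h it was 2. Across the 15470 probe sets, which are not independent, the differences in Atss3 and WT correlated at r = 0.42, and 10228 had the same sign in each. Of the 2031 probe sets called in WT, 1629 had the same sign in Atss3, and the median ratio of the Atss3 to the WT difference was 0.385.

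**Figure D1:**
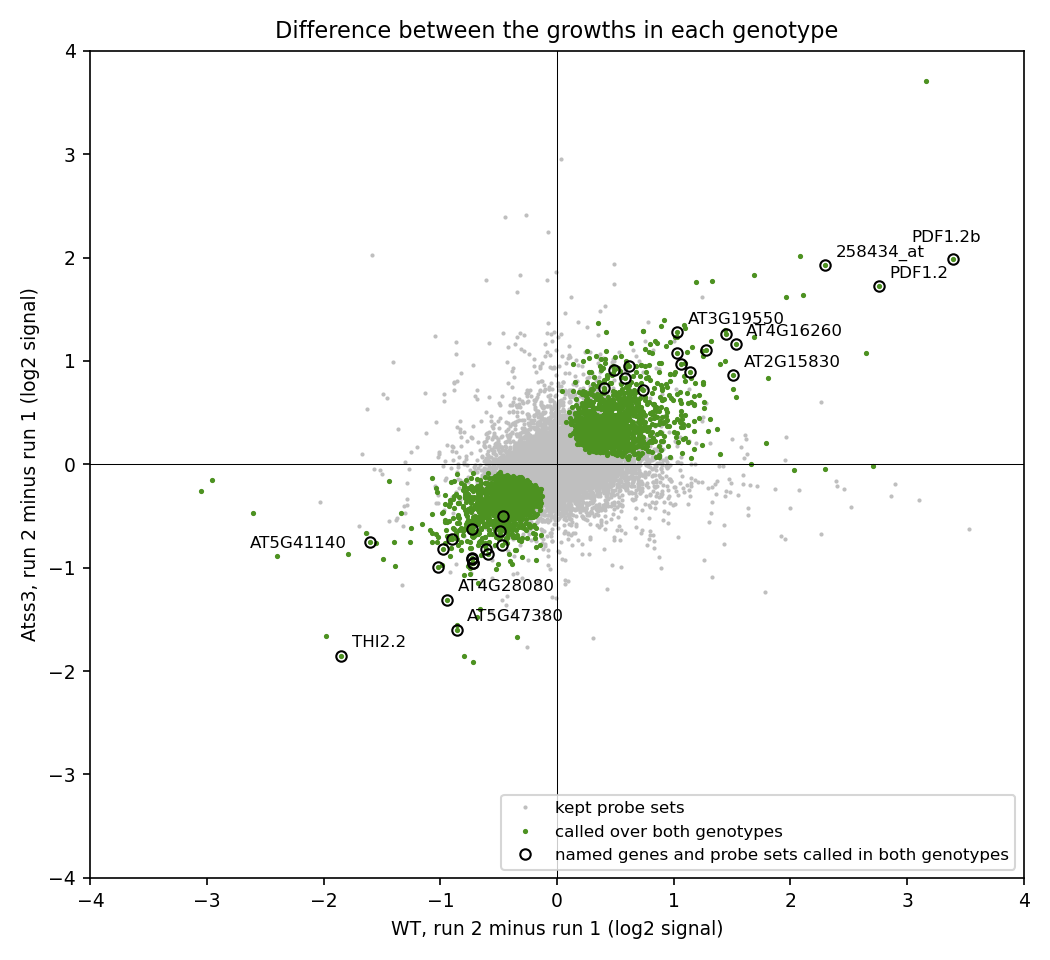
Difference between the growths (second minus first, log2 signal) in WT on the x axis and in Atss3 on the y axis, 1 point per kept probe set. Green points are the 2668 probe sets called over both genotypes, whose equal sign in both genotypes follows largely from that call, and circles mark the named genes and the probe sets called in each genotype.

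The array carries GAPDH and actin controls for RNA integrity, and the WT arrays of the first growth stood apart in GAPDH but not in actin. The GAPDH control has probe sets at its 3' and its 5' end, and their log2 ratio was 0.301 ± 0.0929 on the WT arrays of the second growth and -0.132 ± 0.109 on those of the first (SD, n = 5 each), higher in 5 of 5 pairs (exact sign-flip test, two-sided, p = 0.0625, the smallest that 5 pairs allow). In Atss3 it was 0.427 ± 0.203 in the second growth and 0.378 ± 0.0336 in the first (SD, n = 5 each, exact p = 0.688). The actin 3' to 5' log2 ratio in WT was 2.8 ± 0.229 in the second growth and 2.92 ± 0.335 in the first (SD, n = 5 each). It was higher in 2 of 5 pairs (exact sign-flip test, p = 0.562), and in Atss3 it was at 2.71 and 2.61 (exact p = 0.875). With the GAPDH ratio as a covariate 85 probe sets were called over both genotypes and 2 in each genotype, none of them among the 18. Without the WT arrays of the first growth the fit rests on the 5 Atss3 pairs and called 3 probe sets. A difference in Atss3 uses none of these WT arrays, but its SE and adjusted p do. The fit estimated 1 spread per probe set over all 20 arrays and used it for both genotypes. Of the 296 probe sets measured in the gene lists and families, 79 were called over both genotypes and 3 in Atss3 alone, THI2.2, CAF1 and UGT73B5, so every other list or family gene given below did not pass in Atss3 alone. Organelle-encoded genes were set apart. The part of RNA integrity in the differences was not tested further.

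Genes for antimicrobial peptides differed between the growths by several fold, in opposite directions. The plant defensin gene PDF1.2b (AT2G26020) had signals of 4777, 398, 841, 997 and 657 in Atss3 of the second growth (in order of harvest time), against 283, 149, 184, 530 and 260 in Atss3 of the first. The WT signals were 2246, 996, 1828, 4282 and 1638 in the second growth and 86, 140, 266, 145 and 480 in the first. Every array of the second growth was above its partner, and the highest first-growth value of 530 exceeded the lowest second-growth value of 398. The log2 difference was 2.69 ± 0.389 (SE, 10 pairs), a 6.46-fold rise with an adjusted p of 0.00336 in limma, 3.39 in WT and 1.99 in Atss3. Its relative PDF1.2 (AT5G44420), a standard reporter of jasmonate and ethylene signalling, had 370 to 2271 (median 649) in the second growth and 64.2 to 357 (median 177) in the first. The groups did not overlap, and the difference was 2.24 ± 0.351 (SE, adjusted p = 0.00397, limma), 2.76 in WT and 1.72 in Atss3. In Atss3 alone neither defensin passed the adjusted threshold (0.0776 and 0.0969), and with the GAPDH ratio as a covariate PDF1.2b was at 2.1 (adjusted p = 0.0699) and PDF1.2 at 1.82 (adjusted p = 0.0821). The probe set of PDF1.2b is of the type that can bind related transcripts, so the rises of this gene and of PDF1.2 cannot be counted as independent.

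THI2.2 (AT5G36910), which encodes a thionin, a small antimicrobial protein, fell in both genotypes. It was chosen after its values were seen, because its signals were dim: none of 10 second-growth arrays and 5 of 10 first-growth arrays were above the 40th percentile of their array. Its signals were 73.1, 77.4, 17.2, 18.8 and 22.5 in Atss3 of the second growth, against 350, 233, 89.5, 50.6 and 68.6 in Atss3 of the first. In WT they were 84, 78, 27.6, 16.5 and 26.3 in the second growth, against 387, 227, 143, 61.3 and 62.9 in the first. In every series the signals of 1 and 4 h were the highest, and all 10 pairs were lower in the second growth. The difference was -1.85 in each genotype (SE 0.124 over both, adjusted p = 3.53e-05, limma), a 3.61-fold fall. With signals raised to the 40th percentile of their array it was at -0.66 and was no longer called (adjusted p = 0.0547), with 64 added to every signal it was at -0.96, and without the pairing it was not called (adjusted p = 0.0642), so the size of the fold rests on dim signals. Without the WT arrays of the first growth it was at -1.85 and called (adjusted p = 0.0373). Among the 7 defensins and thionins measured, 4 rose and 1 fell, with a median of 0.59 against 0.03 over all probe sets. The shares called over all probe sets were 8.97% higher and 8.27% lower. PDF1.4 rose by 0.73 (adjusted p = 0.0496) and THI2.1 by 0.59 (adjusted p = 0.0237), the last from dim signals of 38.1 to 236 (median 89.9) in the second growth and 43.3 to 107 (median 60.3) in the first.

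**Figure D2:**
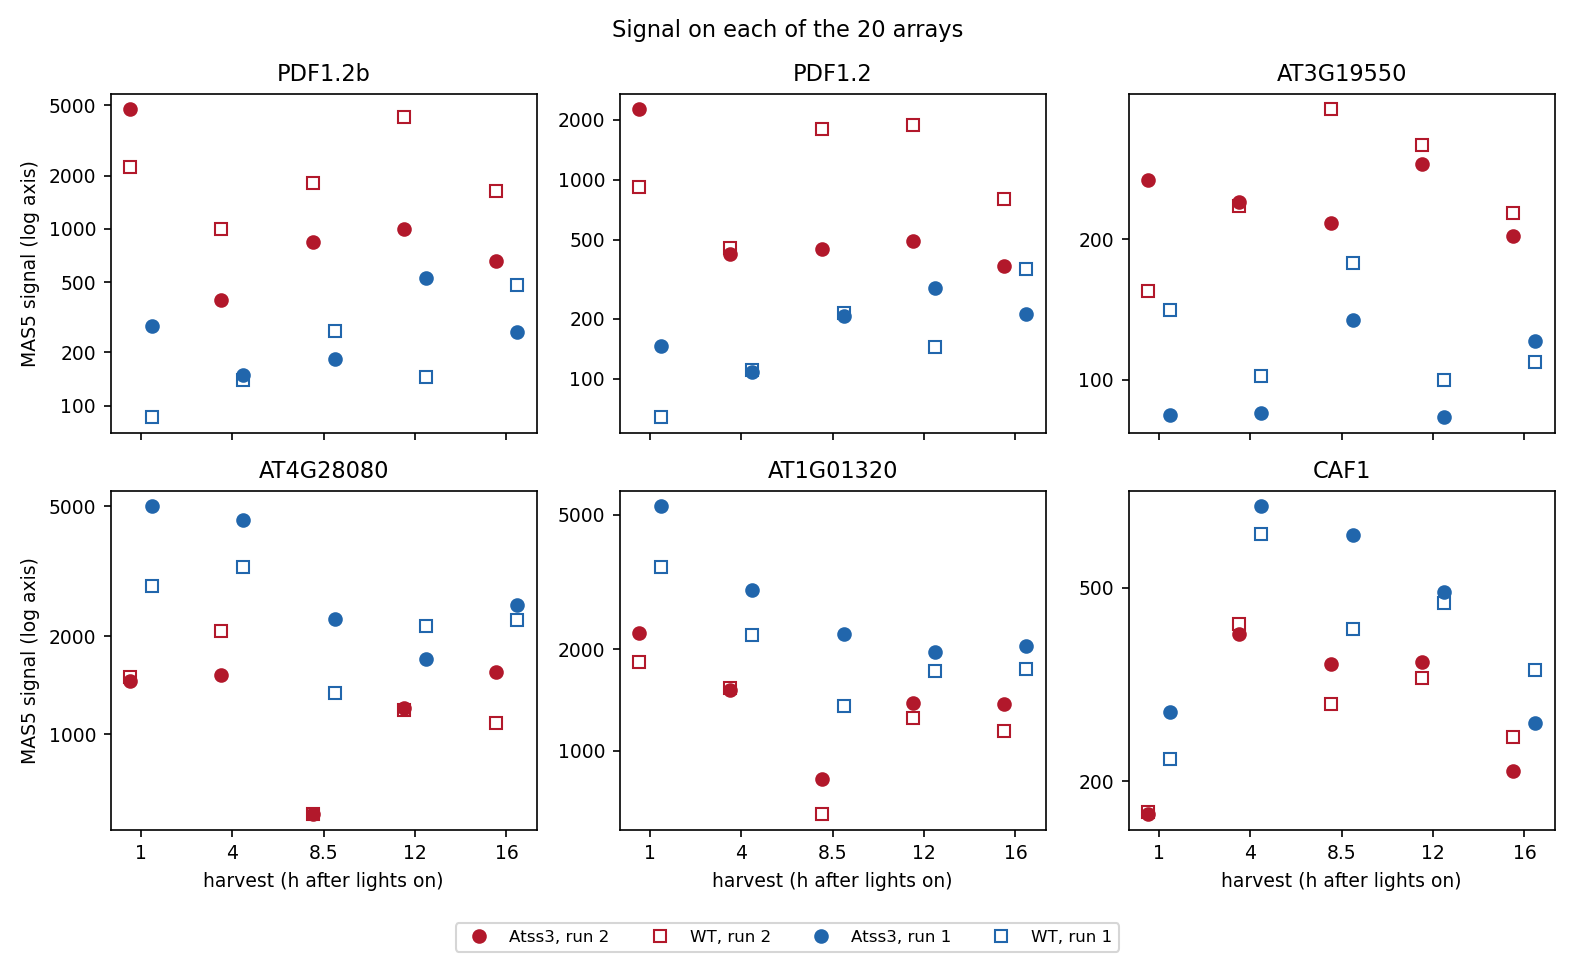
Signal on each of the 20 arrays (y axis, log scale, a different range per panel) by harvest time (x axis) for 6 genes, with the second growth in red and the first in blue, Atss3 as filled circles and WT as open squares. PDF1.2b, PDF1.2 and AT3G19550 lie higher and AT4G28080, AT1G01320 and CAF1 lower in the second growth at every harvest time within each genotype.

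The few measured genes of the salicylic acid list were also higher in the second growth. Only 3 of its 29 entries were measured, and all 3 were called higher, with a median of 0.57, against 8.97% called higher over all probe sets. None of the 3 was called in Atss3 alone. OSM34, the 1 measured gene of the pathogenesis-related family, was not called, at 2.86 in WT and -0.31 in Atss3. WRKY53, a transcription factor of senescence and defence, had signals of 290, 442, 373, 498 and 353 in Atss3 of the second growth and 209, 148, 428, 328 and 253 in Atss3 of the first. WT arrays had 562, 151, 1049, 259 and 479 in the second growth and 161, 61.3, 553, 219 and 235 in the first. It was higher in 9 of 10 pairs, the exception being Atss3 at 8.5 h, and its difference was 0.82 ± 0.175 (SE, adjusted p = 0.0107, limma). SAG101, which acts in resistance signalling, rose by 0.57 (adjusted p = 0.0157), and the glutaredoxin gene GRX480 by 0.46 (adjusted p = 0.0367), with single signals that overlapped between growths. In the jasmonate list 3 of 4 measured members rose, all of them defensins or thionins already described, and JMT, the jasmonate methyltransferase gene, was at -0.32 (adjusted p = 0.195). Of 5 measured WRKY factors 2 rose, WRKY53 and WRKY47 (0.51, adjusted p = 0.0312). CML41, a calmodulin-like protein gene, rose by 0.81 (adjusted p = 0.00702) with signals of 197 to 811 (median 450) in the second growth and 163 to 410 (median 196) in the first.

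Of the 18 probe sets called in each genotype, 10 named a single nuclear gene: 3 rose and 7 fell, and the other 8 were not listed in the annotation. The 3 that rose carry locus names only. AT3G19550 had signals of 268, 240, 217, 289 and 203 in Atss3 of the second growth against 83.9, 84.8, 134, 83.1 and 121 in Atss3 of the first. For WT the signals were 155, 235, 380, 318 and 228 in the second growth against 141, 102, 178, 100 and 109 in the first. The pairs differed by 0.14 to 1.80, with the smallest difference in WT at 1 h. The difference was 1.16 ± 0.150 (SE, adjusted p = 0.00218, limma), 1.03 in WT (adjusted p = 0.0147) and 1.28 in Atss3 (adjusted p = 0.0479). AT1G33030 rose by 0.78 ± 0.0985 (SE), 0.62 in WT and 0.95 in Atss3, and AT3G15770 by 0.57 ± 0.0843 (SE), 0.40 in WT and 0.74 in Atss3. AT1G33030 had 102 to 328 (median 141) in the second growth and 55.2 to 138 (median 88.5) in the first, and AT3G15770 had 264 to 578 (median 317) in the second and 148 to 425 (median 232) in the first. The ranges of both genes overlapped between growths, since each also varied with time and genotype.

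Other named genes rose in all 10 pairs and were called over both genotypes and in WT, but did not reach the adjusted threshold in Atss3 alone. A rise or fall with the same sign in 10 of 10 pairs and a call over both genotypes was seen for 894 probe sets (5.78%), 402 higher (2.6%) and 492 lower (3.18%). Among the genes with signals above the 40th percentile on at least 8 arrays of the higher growth, the largest after the defensins were AT1G11210 and AT4G16260, both at 1.35 ± 0.259 (SE), followed by AT3G14280 (1.19 ± 0.189, SE) and AT2G15830 (1.19 ± 0.165, SE). AT2G15830 peaked at 16 h in both growths, at 796 in Atss3 and 1014 in WT of the second growth against 358 in Atss3 and 202 in WT of the first. AT1G21520 was also highest at 16 h, at 771 in Atss3 and 949 in WT of the second growth against 266 in Atss3 and 258 in WT of the first, and rose by 1.05 overall. AT1G67920 and AT1G72060 each rose by 1.01 (SE 0.158 and 0.120). AT5G62280 lay below that limit of brightness and was at 2.04 ± 0.358 (SE, adjusted p = 0.00551, limma). In Atss3 alone the 7 brighter genes differed by 0.86 to 1.26, with adjusted p of 0.0557 to 0.131.

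Among the genes with signals above the 40th percentile on at least 8 arrays of the higher growth, AT4G28080 had the largest of the falls called in each genotype. In Atss3 it had 1457, 1514, 568, 1205 and 1552 in the second growth, against 5011, 4544, 2259, 1699 and 2490 in the first. WT leaves had 1494, 2071, 567, 1182 and 1083 in the second growth, against 2840, 3254, 1335, 2147 and 2236 in the first. The gap was widest in Atss3 at 8.5 h (-1.99) and narrowest in Atss3 at 12 h (-0.50), and it was negative in all 10 pairs. The difference was -1.13 ± 0.146 (SE, adjusted p = 0.00218, limma), a 2.18-fold fall, -0.94 in WT (adjusted p = 0.0161) and -1.31 in Atss3 (adjusted p = 0.0362). AT1G01320 showed a like pattern, with 649 to 2242 (median 1381) in the second growth and 1358 to 5307 (median 2121) in the first. Its difference was -0.83 ± 0.107 (SE, adjusted p = 0.00217), -0.72 in WT and -0.95 in Atss3. A second probe set of AT1G01320 was at -0.49 (adjusted p = 0.058), -0.08 in WT and -0.89 in Atss3, and was not called. AT3G56370 fell by 0.73 and AT4G37080 by 0.71, each called in both genotypes and lower in 10 of 10 pairs. The 3 probe sets of AT4G17140 disagreed: the one called in each genotype fell by 0.82, another was at -0.70 (adjusted p = 0.00787 over both genotypes, called in neither alone), and the third was at 0.10 (adjusted p = 0.72).

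CAF1 (AT2G20020), a nuclear gene for a factor that splices group II introns in chloroplast transcripts, was the remaining fall called in each genotype. Its signals were 171, 402, 349, 352 and 210 in Atss3 of the second growth and 278, 736, 641, 490 and 263 in Atss3 of the first. In WT they were 173, 422, 289, 326 and 247 in the second growth and 222, 645, 411, 466 and 339 in the first. The peak at 4 h was present in all 4 series and was lower in the second growth. The difference was -0.57 ± 0.0732 (SE, adjusted p = 0.00217, limma), -0.49 in WT and -0.65 in Atss3. Just inside the threshold in Atss3 lay AT4G17140 and AT3G19550 (adjusted p = 0.0479 for each), and just outside it AT2G46620 at 0.61 and AT1G22060 at -0.63 over both genotypes (adjusted p = 0.0503 in Atss3 for each).

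The rest of the 12 genes completed the named falls, each lower in all 10 pairs. They were called over both genotypes, but none was called in Atss3 alone (limma, adjusted p of 0.058 to 0.115). In WT all but AT5G47380 (adjusted p = 0.251) were called. AT5G41140 fell by 1.17 ± 0.187 (SE), with 28.9 to 214 (median 77.2) in the second growth and 111 to 460 (median 149) in the first. AT4G26790 fell by 1.01, AT1G11410 by 0.90 and AT4G25780 by 0.82. MSRB6, which encodes a methionine sulfoxide reductase that repairs oxidised methionine, fell by 0.84 ± 0.143 (SE, adjusted p = 0.00516, limma) and was bright throughout, at 203 to 4167 (median 1503) in the second growth and 587 to 5648 (median 2599) in the first. AT5G47380 fell by 1.23 ± 0.341 (SE, adjusted p = 0.0297), a mean that leans on the Atss3 pair of 8.5 h at -4.50, where its signal was 6.62 in the second growth and 150 in the first. Of the 24 named genes, 12 rises and 12 falls, all kept sign and call when arrays were centred on their medians or normalised by quantiles. With the GAPDH ratio as a covariate 5 of the rises and 7 of the falls were still called and all 24 kept their sign. Without the WT arrays of the first growth 0 of 24 were called, with a median of 1.09 for the 12 rises and -0.91 for the 12 falls. Their signs could not change in that fit, because each of the 24 had the same sign in all 10 pairs.

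Autophagy genes rose as a group. All 10 measured members, found by symbol, were called higher, 6 of them in 10 of 10 pairs, against 8.97% called higher over all probe sets. Their median was 0.40 over both genotypes, 0.48 in WT and 0.38 in Atss3, against 0.03 over all probe sets. Of these, 9 encode ATG8, the ubiquitin-like protein that is attached to the autophagosome membrane, and the other is ATG3, the enzyme that attaches it. ATG8E had signals of 168, 474, 1471, 977 and 1630 in Atss3 of the second growth, against 116, 418, 713, 652 and 1433 in Atss3 of the first. Signals in WT were 149, 866, 1628, 1026 and 1373 in the second growth, against 94.4, 477, 935, 585 and 722 in the first. The signal was lowest at 1 h in every series, and each second-growth value was above its partner. The difference was 0.66 ± 0.0942 (SE, adjusted p = 0.00315, limma), with 0.56 for ATG8B and 0.45 for ATG8C. None of the 10 was called in Atss3 alone, 4 were called with arrays centred within quintiles of gene span, 1 with the GAPDH ratio as a covariate and 0 of 10 without the WT arrays of the first growth, where all 10 were above 0 with a median of 0.38. AKINBETA1, a regulatory subunit of the energy-sensing kinase SnRK1, rose by 0.63 ± 0.111 (SE, adjusted p = 0.00551, limma), at 252 to 2297 (median 1174) in the second growth and 196 to 1519 (median 730) in the first, but the other 4 measured genes of the carbon starvation list were not called, at -0.18 to 0.09.

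Several smaller families that were picked after their values were seen are given as description, so their counts are no test. Over all probe sets 8.97% were called higher, and 16.4% in the quintile of nuclear genes with the shortest spans. The gibberellin receptor genes GID1B (0.64), GID1C (0.54) and GID1A (0.29) and SLY1 (0.26), the F-box gene through which the hormone signal is passed on, were all 4 called higher, with a median of 0.41. GID1B had 502, 212, 357, 422 and 419 in Atss3 of the second growth against 466, 133, 222, 239 and 212 in Atss3 of the first. WT had 271, 183, 438, 357 and 339 in the second growth against 352, 92, 219, 187 and 233 in the first, so that WT at 1 h was the only pair in which it was lower. Of 9 tetraspanins, small proteins of cell membranes, 5 were called higher, led by TET2 (0.56, adjusted p = 0.0104), TET8 (0.45) and TET6 (0.34), with a family median of 0.34. Of 11 ubiquitin-conjugating enzymes 4 were called higher, led by UBC19 (0.30), UBC29 (0.30) and UBC27 (0.21), and all 11 were above 0. With arrays centred within quintiles of gene span, 1 of the 4 gibberellin genes, 1 of the 9 tetraspanins and 0 of the 11 ubiquitin-conjugating enzymes were called. Without the WT arrays of the first growth no member of these 3 families was called, nor any in the 4 families that follow.

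In the 4 families that follow, every call was lower in the second growth. These too were picked after their values were seen. Over all probe sets 8.27% were called lower, and 17.7% in the quintile of nuclear genes with the longest spans. Of 12 plastid RNA splicing and editing factors 6 were called lower and all 12 were below 0, with a median of -0.35. CFM3A, an intron splicing factor, had 156 to 399 (median 239) in the second growth and 267 to 563 (median 374) in the first, a difference of -0.64 ± 0.0852 (SE, adjusted p = 0.00244, limma). PAC, which is needed for plastid RNA maturation, had 132 to 313 (median 251) in the second growth and 199 to 437 (median 340) in the first, a difference of -0.52. Of 3 chaperonin 60 beta subunits of the chloroplast 2 fell, Cpn60beta2 by 0.82 (adjusted p = 0.00352) and Cpn60beta4 by 0.45, and Cpn60beta3 was at 0.03. Cpn60beta2 had 299 to 2405 (median 1215) in the second growth and 553 to 3345 (median 2000) in the first. Of 7 exocyst subunits, which tether secretory vesicles to the plasma membrane, 3 were called lower, SEC6 by 0.42, SEC5A by 0.40 and SEC5B by 0.37, with a family median of -0.23. Of 9 IQD calmodulin-binding proteins 4 were called lower, led by IQD31 at -0.41 (adjusted p = 0.00458), with a family median of -0.17 (-0.01 with arrays centred within quintiles of gene span). With that centring 5 of the 12 plastid RNA factors, 2 of the 3 chaperonins, 1 of the 7 exocyst subunits and 3 of the 9 IQD genes were called lower. With the GAPDH ratio as a covariate 1 plastid RNA factor and 1 IQD gene were.

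**Figure D3:**
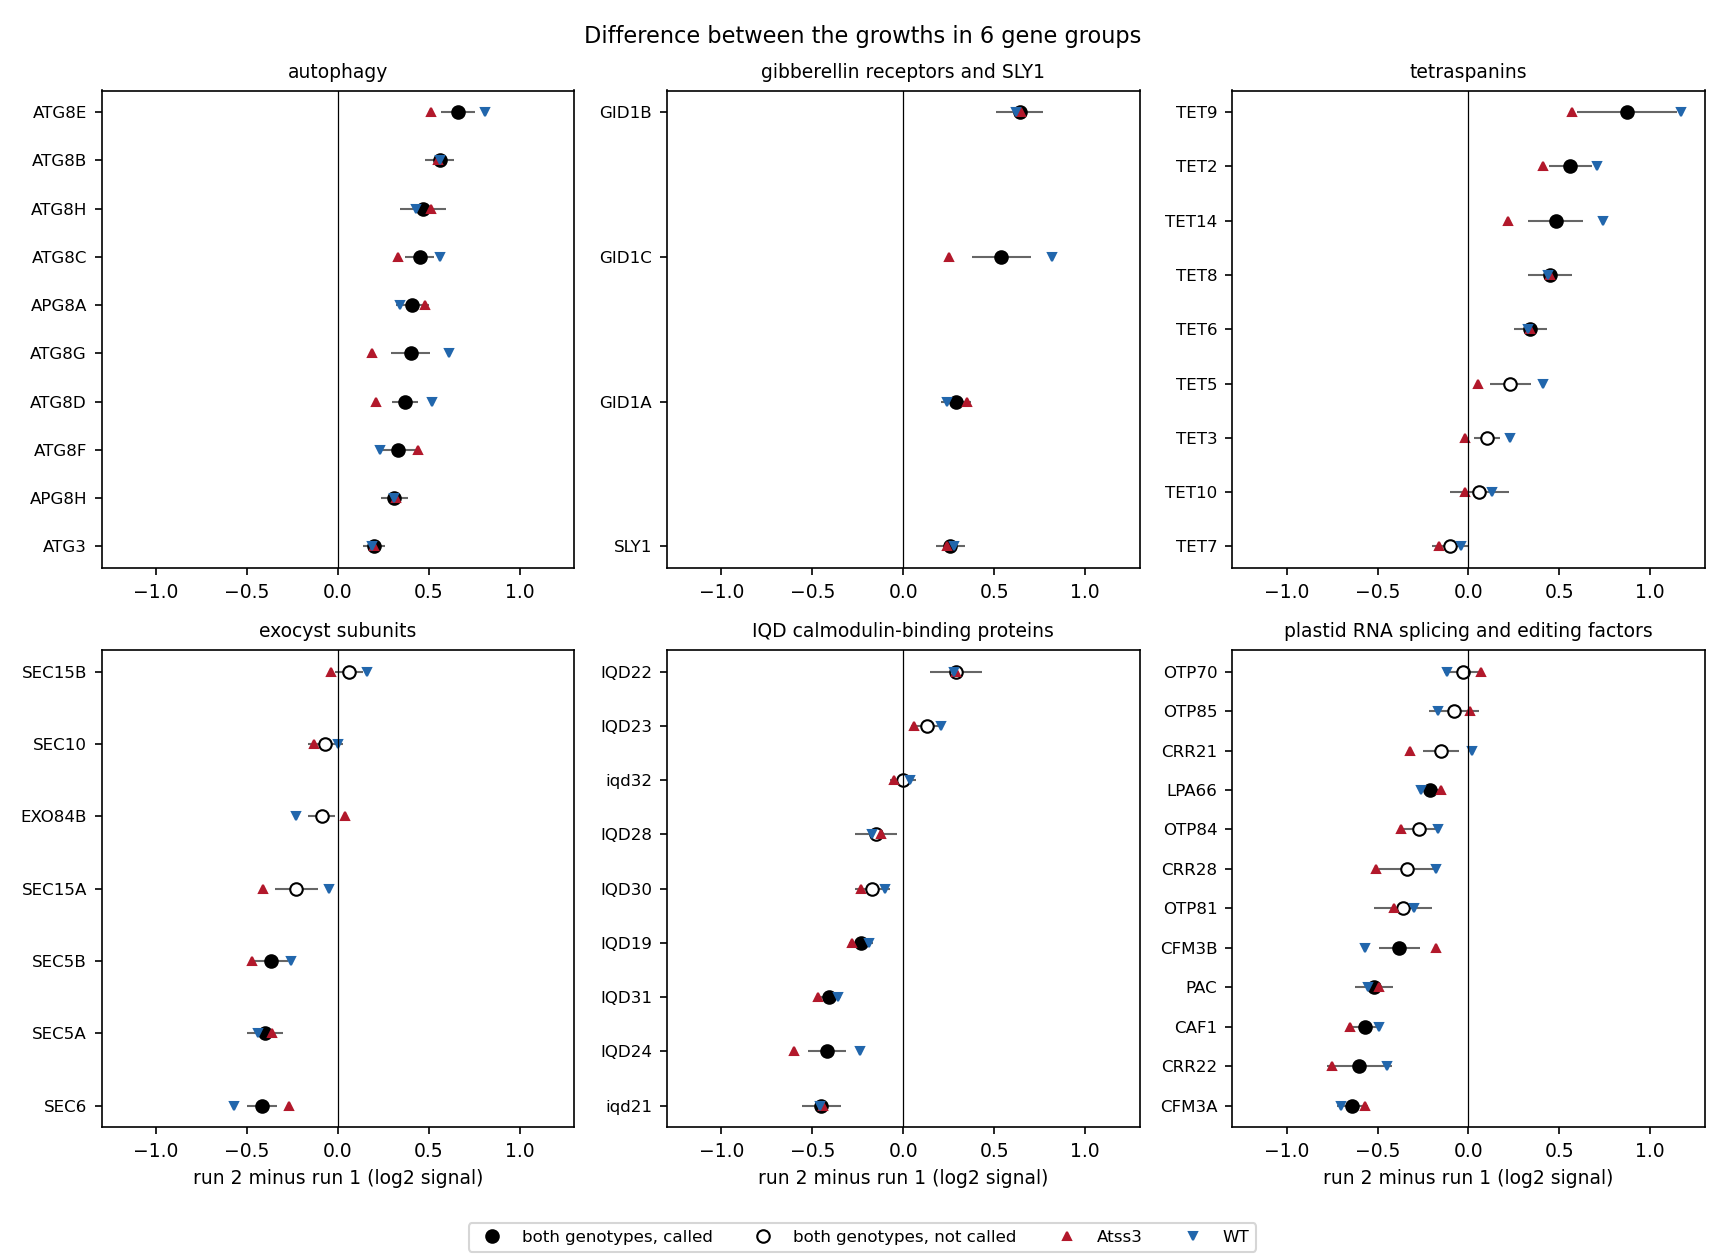
Difference between the growths (x axis, second minus first, log2 signal) for each measured member of 6 gene groups. Circles give the estimate over both genotypes with its SE, filled where called, and triangles the estimates in Atss3 (up) and WT (down). The 10 autophagy genes lie between 0.20 and 0.66 and the 12 plastid RNA factors all lie below 0.

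In the starch and flavonoid lists 2 of 4 measured genes each were called lower and none higher, against 8.27% called lower over all probe sets. Only 4 of 34 entries of the starch and sugar list and 4 of 24 of the flavonoid list were measured. With arrays centred within quintiles of gene span 1 of the 4 starch genes was called lower (median -0.10) and 2 of the 4 flavonoid genes. PWD (AT5G26570), the phosphoglucan water dikinase of starch breakdown, had 484 to 3047 (median 1942) in the second growth and 883 to 4592 (median 2657) in the first. Its difference was -0.55 ± 0.107 (SE, adjusted p = 0.00777, limma), negative in 10 of 10 pairs, -0.30 in Atss3 and -0.79 in WT, and a probe set of AT4G24450 with the same symbol was at -0.34 (adjusted p = 0.154). SBE2.2, a starch branching enzyme, fell by 0.36 (adjusted p = 0.0205), and the other 2 measured starch genes, DPE1 at -0.14 and APL3 at 0.06, were not called. Of 13 sugar transporters 2 fell, the vacuolar TMT2 by 0.38 (adjusted p = 0.0147) and SWEET2 by 0.28 (adjusted p = 0.0367), with a family median of 0.05, against 8.27% called lower over all probe sets, and 1 of the 13 was called lower with centring by gene span, and also when any of 16 of the 20 arrays was left out. In the flavonoid list UGT78D1, a flavonol rhamnosyltransferase, had 820, 579, 223, 443 and 373 in Atss3 of the second growth against 1096, 975, 452, 752 and 643 in Atss3 of the first. WT leaves gave 1180, 624, 154, 435 and 350 in the second growth against 1115, 1048, 349, 579 and 748 in the first, and WT at 1 h was the only pair not lower. Its difference was -0.71 ± 0.114 (SE, adjusted p = 0.0044, limma), and UGT78D2, a flavonoid glucosyltransferase, fell by 0.57 (adjusted p = 0.0126). None of these starch, transporter and flavonoid genes was called with the GAPDH ratio as a covariate, nor were the salicylic acid and jasmonate genes.

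Hormone and stress markers gave single calls in either direction. The Aux/IAA repressor genes IAA29 (0.62, adjusted p = 0.00813) and IAA18 (0.38, adjusted p = 0.0157) rose in 10 of 10 pairs. For IAA18 the Atss3 pair of 4 h was almost level, at 580 against 579. These were 2 calls among 4 measured genes of the Aux/IAA, SAUR and GH3 families, and GH3.3 (-0.41) and GH3.9 (-0.18) were not called. Among the genes of cell walls, the xyloglucan endotransglucosylase gene XTH19 rose by 0.98 (adjusted p = 0.0224) and the expansin gene EXPA16 by 0.59 (adjusted p = 0.0129), in each case 1 call in a family of 5 and 10. BZIP60, a transcription factor of the unfolded protein response, rose by 0.51 (adjusted p = 0.00663) with 887 to 2402 (median 1149) in the second growth and 664 to 1245 (median 862) in the first. Of 6 measured genes of the cold and dehydration list, COR27 rose by 0.58 (adjusted p = 0.0489) and COR15B fell by 0.44 (adjusted p = 0.041). The rise of COR27 leaned on dim Atss3 signals at 1 and 4 h, of 33.4 and 7.3 in the second growth against 7.96 and 2.64 in the first. At 8.5 h, where it was bright, Atss3 had 4556 against 3229 and WT 5484 against 3928. XERICO, a RING finger gene of abscisic acid metabolism, rose by 0.41 (adjusted p = 0.0277), and HIS1-3, a linker histone gene known to respond to drought, by 0.82 (adjusted p = 0.013). Of 13 cytochrome P450 genes 2 rose, CYP71B23 (0.59) and CYP71B24 (0.49), and of 28 UDP-glycosyltransferases 2 rose and 3 fell, shares near the 8.97% called higher and 8.27% called lower over all probe sets. UGT73B5, a dim member of that family, was at 1.07 over both genotypes (adjusted p = 0.0939), 2.41 in Atss3 (adjusted p = 0.00632) and -0.27 in WT (adjusted p = 0.523).

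Markers of leaf cell types were not called between the growths. The antenna gene LHCB4.1 was bright on every array, at 15906 to 28799 (median 21860) in the second growth and 17831 to 29668 (median 22900) in the first. Its difference was -0.11 ± 0.0726 (SE, adjusted p = 0.306, limma), and 0 of 8 nuclear antenna and photosystem genes were called, with a median of -0.09 (with arrays centred within quintiles of gene span 3 of the 8 were called lower). The guard cell markers FMA (-0.07) and CHX20 (-0.08) and the phloem marker SWEET11 (0.05) were not called. PYK10, a root beta-glucosidase, was at -0.36 (adjusted p = 0.212), with 92.4 to 696 (median 180) in the second growth and 149 to 554 (median 310) in the first. Trichome, dividing-cell, and flower, pollen and seed markers had no named probe set among those kept.

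The span of a gene in the genome went with the direction of its difference. Among 8410 probe sets that name a single nuclear gene, 812 were called higher and 596 lower. The median gene span in the TAIR10.1 annotation was 1851 bases for those called higher, 3522 for those called lower and 2319 for all. In the quintile with the longest spans 2.2% were called higher and 17.7% lower, against 16.4% higher and 2.19% lower in the shortest. Spearman's rho between span and difference was -0.38 in WT and -0.28 in Atss3 across genes, which are not independent. The median difference of the longest quintile was below that of the shortest in 9 of 10 pairs, and above it in Atss3 at 16 h. With every array centred within each quintile of span, 1044 of 8410 were called (418 higher, 626 lower), 714 of them among the 1408 called before, and all 24 named genes kept their sign and call.

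**Figure D4:**
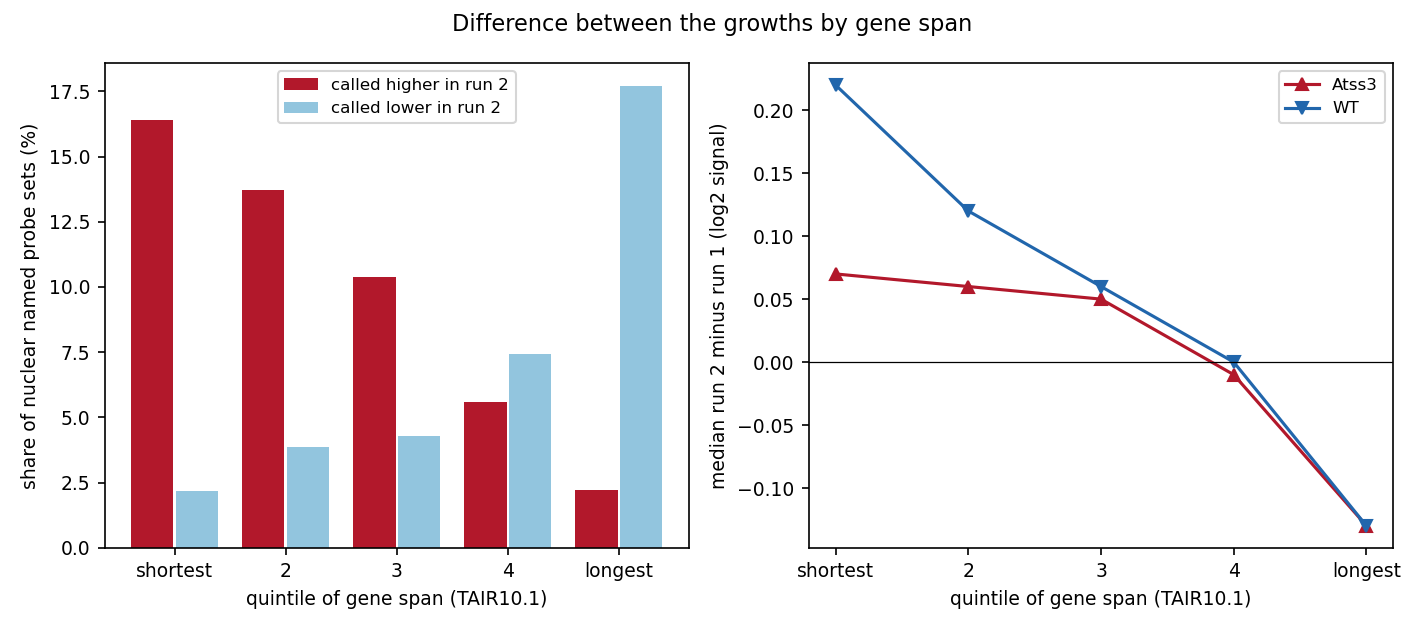
Left, share of nuclear named probe sets called higher or lower in the second growth (y axis, percent) in each quintile of gene span (x axis, shortest to longest). Right, median difference between growths (y axis, second minus first, log2 signal) in the same quintiles for Atss3 and WT, which falls below 0 in the longest quintile in both.

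The direction also went with the time of day at which a transcript was highest. Among the probe sets that varied over the day, 434 of 2014 with their highest mean signal at 4 h were called lower in the second growth (21.5%) and 58 higher (2.88%). Of 2091 that peaked at 8.5 h, 62 were lower (2.97%) and 355 higher (17%). Of 1809 that peaked at 16 h, 93 were lower (5.14%) and 273 higher (15.1%). Those that peaked at 1 h (9.03% lower, 7.18% higher) and 12 h (9.96% lower, 10.7% higher) were nearer to balance. Whether the difference itself changed over the day was tested across the 5 harvest times: limma called 0 of 15470 (0%), and 1341 had an unadjusted p under 0.05. Other settings called 1, 4 or 7 probe sets in that test.

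**Figure D5:**
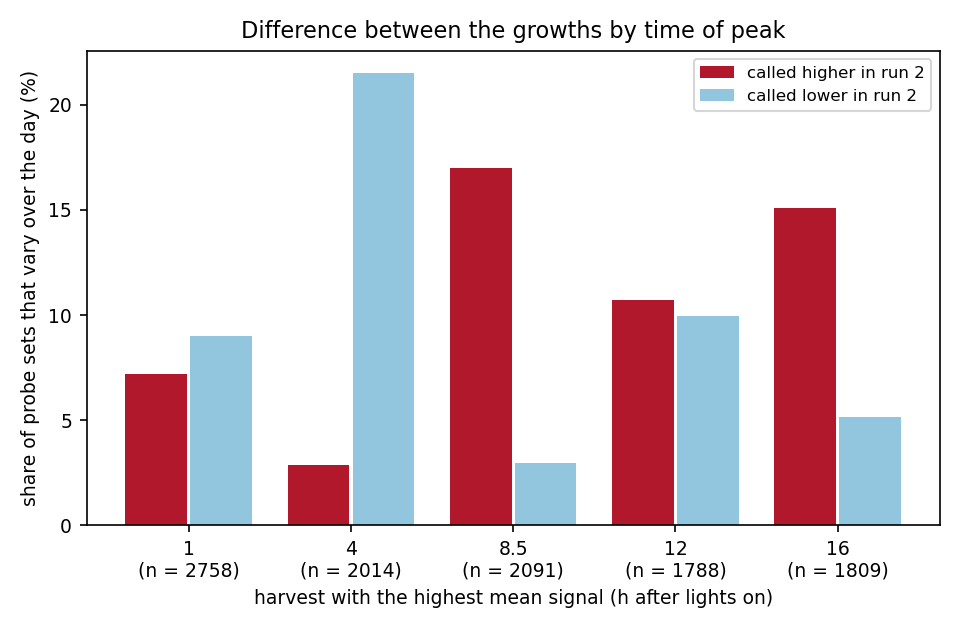
Share of probe sets that vary over the day (y axis, percent) called higher or lower in the second growth, by the harvest at which their mean signal was highest (x axis). Calls lower in the second growth are most frequent for transcripts that peak at 4 h, and calls higher for those that peak at 8.5 and 16 h.

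For a few probe sets the difference between growths was not the same in the genotypes. The test of Atss3 minus WT in the difference between growths called 71 probe sets (0.459%), 60 with the higher difference in WT. Of the 71, only 10 named a single nuclear gene, against 8410 of all 15470 probe sets. Of these 10, 7 passed the limit of brightness, and the 4 with the smallest p are given here. AT3G24480 had 315, 370, 196, 269 and 369 in Atss3 of the second growth and 413, 515, 273, 384 and 382 in Atss3 of the first, lower in every pair. WT had it at 461, 517, 246, 338 and 356 in the second growth and 243, 277, 142, 190 and 290 in the first, higher in every pair. The difference between growths was -0.38 in Atss3 and 0.75 in WT, and the test of that contrast gave -1.13 ± 0.158 (SE, adjusted p = 0.00718, limma). AT1G09800 was at -0.36 in Atss3 and 0.92 in WT (contrast -1.28, adjusted p = 0.0166), and AT1G70200 at -0.29 in Atss3 and 0.47 in WT (contrast -0.76, adjusted p = 0.0251). AT4G29950 went the other way, at 0.72 in Atss3 and -0.26 in WT (contrast 0.97, adjusted p = 0.0104). In each of these 4 genes 1 genotype was called on its own and the other was not. With arrays centred within quintiles of gene span, no probe set was called in this test, and with the GAPDH ratio as a covariate 11 were.

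QQS, known for its high transcript level in starch mutants, was not called between growths: the difference was 0.16 ± 0.148 (SE, adjusted p = 0.474, limma), with 208 to 5478 in the second growth and 108 to 5824 in the first. The clock gene GI fell by 0.75 ± 0.187 (SE, adjusted p = 0.0198), at 835, 815, 1110, 83 and 66.4 in Atss3 of the second growth and 2200, 1195, 2331, 60.5 and 73.9 in Atss3 of the first. WT signals were 690, 1020, 997, 28.8 and 11.4 in the second growth and 1614, 1091, 2203, 45 and 36.4 in the first. At 1 and 8.5 h, where the signal was bright, the pairs differed by -1.07 to -1.40. At 4 h it was also bright, but the pairs were at -0.55 in Atss3 and -0.10 in WT. The signal was dim at 12 and 16 h on all arrays, where the pairs ran from -1.68 (WT at 16 h) to 0.46 (Atss3 at 12 h).

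Some probe sets without a listed gene also differed by several fold. The probe set 258434_at had 17055, 9126, 5058, 4189 and 7134 in Atss3 of the second growth, against 6095, 2316, 1346, 1144 and 1367 in Atss3 of the first. On the WT arrays it had 12925, 11181, 6963, 7435 and 8837 in the second growth, against 5554, 1655, 1402, 1427 and 1246 in the first. It rose by 2.11 ± 0.149 (SE, adjusted p = 3.53e-05, limma) and was called in each genotype. Among probe sets called over both genotypes with the same sign in all 10 pairs, 247573_at had the largest mean difference. It was at 3.43 ± 0.655 (SE, adjusted p = 0.00711, limma), from dim signals of 57.4 to 391 in the second growth and 2.1 to 112 in the first. Its pairs ran from 0.01 to 6.26, and it was called in neither genotype alone (adjusted p = 0.0515 in WT and 0.0867 in Atss3). The falls called in each genotype included 258023_at at -0.81 and 264078_at at -0.68 (adjusted p = 0.000761 for each), both bright and highest at 1 h in every series. These were chosen after their values were seen.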

How the data were processed

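The deposited table held MAS5 signal intensity for 22810 probe sets on 20 arrays of total leaf RNA; MAS5 is named in the submitters' processing notes without a version, and the arrays' trimmed means were close to 500, with array medians of 151.7 to 178.4. Control probe sets (64) were removed. Values under 1 were raised to 1, log2 was taken, and 15470 of 22746 probe sets that exceeded the 40th percentile of an array at least 2 times were kept. limma 3.58.1 (R 4.3.3) fitted a mean for each of 10 genotype and time groups plus a growth term (9 residual degrees of freedom), or a growth term per genotype (8) or per time (5), with Benjamini-Hochberg adjustment at 0.05. The number of arrays limits the precision, and p-values describe agreement over 10 pairs from 2 growths.

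Of the kept probe sets, 8410 named a single nuclear gene. Genes were named if called in each genotype, nuclear, and above the 40th percentile on at least 8 of 10 arrays of the higher growth: up to 12 rises and 12 falls by size, filled with genes called over both genotypes with the same sign in 10 of 10 pairs. For the genotype contrast, 4 were named, and for each gene list up to 3 called members by p. The lists matched few measured genes (68 loci), because only part of the probe sets carry a gene name here. The comparison, lists and families were chosen with earlier results of these data known, some families were chosen after their values were seen, and the symbol patterns of several families were corrected then, to drop unrelated genes. Gene spans come from the TAIR10.1 annotation. The pairing follows genotype and time: the differences of separate pairs correlated over 0.1 in 41 of 45 cases. On simulated data for the difference over both genotypes (15470 probe sets) the fit recovered 55 of 100 changes of 0.5 and 92 of 100 changes of 1 on the log2 scale, with 9 false calls. Only 100 probe sets were changed there, against 2668 called in the data, so these false calls give no error rate for the calls reported here. Alternatives covered scaling, filters, the GAPDH ratio, the pairing and single arrays.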

Additional observations from a re-analysis of the deposited data

Results flagged for a closer look

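AT5G47380 was flagged because its Atss3 pair of 8.5 h, at -4.5 in log2 signal (second minus first growth), lay far from the other 4 Atss3 pairs. It was 1 of 30 sets of 5 pairs that were checked, and chance flags about 1 in 20 groups. The growth by genotype contrast (Atss3 minus WT of the second minus first difference) was past the limma threshold for 71 probe sets. Only 10 of them named a single nuclear gene. The 4 genes described above were AT3G24480 at -1.13, AT4G29950 at 0.97, AT1G09800 at -1.28 and AT1G70200 at -0.76. The estimates of the genotypes had opposite signs in each of these 4 genes, but 1 genotype passed the threshold in each and the other did not. The GAPDH 3' to 5' ratio of the WT arrays also differed between growths. With that ratio as a covariate the contrast called 11 probe sets in place of 71. The contrasts of these 4 genes in that fit are not given here, and the cause was not tested.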

How the results depend on the processing

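Counts are of probe sets called over both genotypes, in WT, in Atss3 and in each genotype, reported as 2668, 2031, 26 and 18. Without the pairing by genotype and time (no replicate block) they were 55, 152, 0 and 0, and with the GAPDH ratio as a covariate 85, 20, 17 and 2. Without the filter on dim probe sets they were 1468, 956, 6 and 2. With arrays centred within quintiles of gene span, chosen after seeing the data and run on 8410 probe sets, they were 1044, 693, 16 and 10. In the settings that follow, the first 2 counts moved by under 1.5 times, and the counts in Atss3 and in each genotype were 195 and 97 with quantile normalization, 138 and 81 with centred arrays (875 higher and 1706 lower over both), 370 and 186 with 64 added, 344 and 173 with signals raised to the 40th percentile, and 252 and 135 with a filter of 10 arrays. Without the 5 WT arrays of the first growth, 3 probe sets were called over both genotypes, which are then the Atss3 pairs.

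Leaving out 1 array at a time, which removes its pair from the estimate, gave 1622 to 2713 over both genotypes, 672 to 1950 in WT, 3 to 222 in Atss3 and 2 to 123 in each genotype. The WT pairs of 4 and 8.5 h lowered the count over both genotypes the most (1731 and 1622). The genotype contrast (71) called 47 probe sets without the filter, 11 with the GAPDH covariate and 0 with centring by span. The contrast over time (0) called 1 with 64 added, 4 with raised signals, 7 with the stricter filter, and 0 to 1 with an array left out. The difference over both genotypes changed sign for AT3G24480 (-0.24 with the GAPDH covariate, -0.38 without the WT arrays), AT1G09800 (-0.01 and -0.36), AT1G70200 (-0.12 and -0.29) and, with centring by span, QQS (-0.05). The causes were not tested.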
